A study of Homo sapiens with 6 samples.

Results

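Transcripts of the oxidative phosphorylation complexes were followed in U937, an established human line of monocytic origin, as the subunits encoded in the nucleus and the 13 encoded in mitochondrial DNA. The members were the protein-coding genes whose symbols in the GENCODE annotation start with NDUFA, NDUFB, NDUFC, NDUFS, NDUFV, SDHA to SDHD, UQCR, COX4, COX5, COX6, COX7, COX8 or ATP5, with CYC1 and the protein-coding MT- genes added. Of 117 annotated genes that fit this rule, 113 stood among the 18798 genes of the count table, 100 nuclear and 13 mitochondrially encoded. COX6A2, COX7B2, ATP5MGL and the read-through gene NDUFC2-KCTD14 were not analysed here. The prefixes also take 12 assembly factors (NDUFAF1 to NDUFAF8 and SDHAF1 to SDHAF4), which help build complexes I and II without being subunits, and 1 read-through gene, ATP5MF-PTCD1, so 87 nuclear members are counted with the complexes. These 87 include ATP5S, whose product, now named DMAC2L, is not a standing subunit. The members were chosen by name, not by their values.

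The ΔNSPs group holds 3 independent clones of U937 in which the genes of 3 neutrophil serine proteases, CTSG, ELANE and PRTN3, were depleted together. The Control group holds 3 U937 lines transduced with control plasmids. Both groups were grown under geneticin selection and total RNA was sequenced, 1 library per clone or line. Each ΔNSPs sample is 1 clone, so what belongs to a clone and what belongs to the depletion cannot be told apart within a library; errors are SD over 3 libraries per group, and whether the libraries come from separate cultures beyond this is not given.

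Oxidative phosphorylation takes place in the inner mitochondrial membrane. Complexes I and II pass electrons from NADH and succinate to ubiquinone, complex III passes them to cytochrome c, and complex IV to oxygen; complexes I, III and IV pump protons, and complex V, the ATP synthase, makes ATP as the protons return. Complex II is encoded by nuclear genes alone, while the other complexes mix nuclear subunits, imported after translation in the cytosol, with subunits transcribed and translated inside the organelle, so both genomes supply the same machine.

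Many promoters of respiratory chain genes are known to carry sites for the transcription factor NRF1 and for ETS-family factors such as GABP, and the stretches below show these letters ahead of 5 nuclear members from complexes I, III, IV and V. Sequences are from RefSeq (GRCh38.p14), 5′ to 3′ on the strand of the gene, cut from the 250 bases before the first start listed for the gene, with bases of annotated GENCODE exons left out. Capitals mark GCATGCGC, the NRF1 core, and CCGGAAG, an ETS core, on either strand. The stretches are chr3:120596086-120596308 on the plus strand (complex I), chr19:1605491-1605712 on the minus strand (complex III), chr2:97645812-97646039 on the plus strand and chr12:120437863-120438089 on the plus strand (complex IV), and chr17:75046986-75047183 on the minus strand (complex V).
NDUFB4: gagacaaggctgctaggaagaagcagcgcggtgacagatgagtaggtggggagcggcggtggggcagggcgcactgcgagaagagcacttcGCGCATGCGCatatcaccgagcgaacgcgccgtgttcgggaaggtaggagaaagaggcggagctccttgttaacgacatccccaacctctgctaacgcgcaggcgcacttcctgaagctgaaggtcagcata
UQCR11: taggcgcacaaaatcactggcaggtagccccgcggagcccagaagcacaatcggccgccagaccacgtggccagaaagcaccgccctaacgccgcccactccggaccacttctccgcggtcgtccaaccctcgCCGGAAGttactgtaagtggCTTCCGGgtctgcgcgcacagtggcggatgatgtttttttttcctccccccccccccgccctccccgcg
COX5B: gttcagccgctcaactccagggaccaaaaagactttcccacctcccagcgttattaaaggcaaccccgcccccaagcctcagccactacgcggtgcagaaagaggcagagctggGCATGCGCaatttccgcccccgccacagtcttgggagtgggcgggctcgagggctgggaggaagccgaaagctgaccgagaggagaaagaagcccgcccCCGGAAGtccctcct
COX6A1: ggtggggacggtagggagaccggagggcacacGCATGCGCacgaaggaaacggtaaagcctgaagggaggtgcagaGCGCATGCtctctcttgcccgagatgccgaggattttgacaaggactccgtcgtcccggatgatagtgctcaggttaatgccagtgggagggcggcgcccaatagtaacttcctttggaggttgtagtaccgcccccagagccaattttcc
ATP5PD: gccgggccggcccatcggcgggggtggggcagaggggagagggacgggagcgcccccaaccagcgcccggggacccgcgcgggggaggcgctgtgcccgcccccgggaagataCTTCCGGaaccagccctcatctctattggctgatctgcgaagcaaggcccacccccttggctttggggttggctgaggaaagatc

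In NDUFB4 the NRF1 core matched on both strands within a single palindromic stretch, in COX6A1 it occurred once on each strand, and in UQCR11 the ETS core occurred once on each strand. COX5B carried both motifs. Over the whole 250 bases, RefSeq promoters matched 66 of the 87 nuclear subunit genes, and 9 of these list more than 1 start, of which the first was used. The NRF1 core occurred in 12 of the 66 (18.2%), against 3.699% of 15842 protein-coding promoters of the same length. The ETS core occurred in 16 (24.2%), against 11.8%, and GGGCGGGG, an SP1 core, in 14 (21.2%), against 30.7%. SDHB, SDHD, COX5B, COX6A1 and ATP5PF held both the NRF1 and the ETS core, 7.58% of the 66 against 0.701% of all promoters. No matches of different motifs shared bases in the members. A match describes letters in the window, not a bound site.

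The libraries held 11476619 to 13782854 counts, and 3 counts correspond to 0.214 to 0.2599 CPM (CPM divides each count by the TMM-adjusted total of its library). The targeted genes were lower in each clone than in each Control line: CTSG reached at most 136 CPM in ΔNSPs clones and at least 1895 CPM in Control lines, ELANE 41.8 and 969.6 CPM, and PRTN3 63.2 and 147 CPM. Of 9 myeloid markers, CD33, SPI1, LYZ, ITGB2, CD4 and CEBPA lay above 58 CPM in every library, FCGR1A between 4.97 and 7.36 CPM and CSF1R between 0.362 and 4.24 CPM, while CD68 did not exceed 1.14 CPM. The summed level of the 9 was 1248, 2042 and 1998 CPM in ΔNSPs clones 1 to 3 and 1419, 1523 and 1601 CPM in Control lines 1 to 3. Of the 8 markers tested, 5 had positive and 3 negative log2 fold changes, from -0.17 to 1.64 with a median of 0.10. SPI1 was higher in every clone than in every Control line (log2 fold change 0.20). LYZ, ITGB2 and CSF1R had overlapping groups with log2 fold changes of 0.55, 0.51 and 1.64. The part of these markers in the members' values was not tested. The T cell markers CD3E and CD3D, the B cell marker MS4A1 and the epithelial markers EPCAM and CDH1 were not among the genes of the table. The fibroblast markers COL1A1 and COL1A2 lay at or under 3.78 CPM, and the erythroid gene HBB lay between 73.9 and 133 CPM in all 6 libraries. ΔNSPs clone 2 stood apart on chromosome 8: over 8 windows of 20 Mb, the median log2 ratio to the Control mean ran from -0.87 to -0.54 in that clone, against -0.15 to 0.13 in clones 1 and 3.

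The comparison of ΔNSPs clones with Control lines asked whether depletion of the 3 proteases came with a change in these transcripts. No member passed: 0 of the 108 members with enough counts to be tested had an edgeR adjusted p under 0.05, beside 0.0203% of all 14797 genes tested (0.00676% higher and 0.0135% lower). The smallest adjusted p was 0.178, for NDUFB2. DESeq2 also called 0 members, beside 3.98% of the genes it adjusted, and limma voom called 0. At an unadjusted edgeR p under 0.05 stood 10 members, all higher in the ΔNSPs clones and none lower. That is 9.26% of the members tested, beside 17.8% of all genes, 9.23% higher and 8.6% lower. At that level DESeq2 had 12 members (11 higher, 1 lower) and limma voom 17 (15 higher, 2 lower). In edgeR the count moved when a library was left out: without Control line 2 it was 1, without Control line 3 it was 6, and without ΔNSPs clone 1 it was 17. The shares of all genes at that level in these other fits are not given here, so the counts cannot be read as a trait of the members. Calls over all genes moved too, from 0.0203% to 6.17% at an adjusted p under 0.05 without ΔNSPs clone 1. The groups did not overlap in 15 members higher and 6 lower in ΔNSPs clones, 19.4% of the members beside 23.9% of all genes tested.

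Differences were small throughout. The median log2 fold change, ΔNSPs over Control, was 0.067 over the 95 nuclear members tested and 0.10 over the 13 mitochondrially encoded ones, beside 0.018 over protein-coding genes of at least 20 CPM and 0.0023 over all genes tested. Only ATP5F1E (0.62), the assembly factor SDHAF4 (-0.72) and MT-ATP8 (-0.62) differed by more than 0.5 on the log2 scale, and none of the 3 passed the test. The summed level of the 100 nuclear members was 12378, 12271 and 12691 CPM in ΔNSPs clones 1 to 3 and 12679.9, 11550.5 and 12179 CPM in Control lines 1 to 3. The mean was 12447 ± 218 CPM in ΔNSPs and 12137 ± 566 CPM in Control (SD). Control line 2 was the lowest of the 6 libraries, and the groups overlapped. In these bulk libraries a lower level can mean fewer cells with the transcript or less of it per cell, which cannot be told apart.

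**Figure D1:**
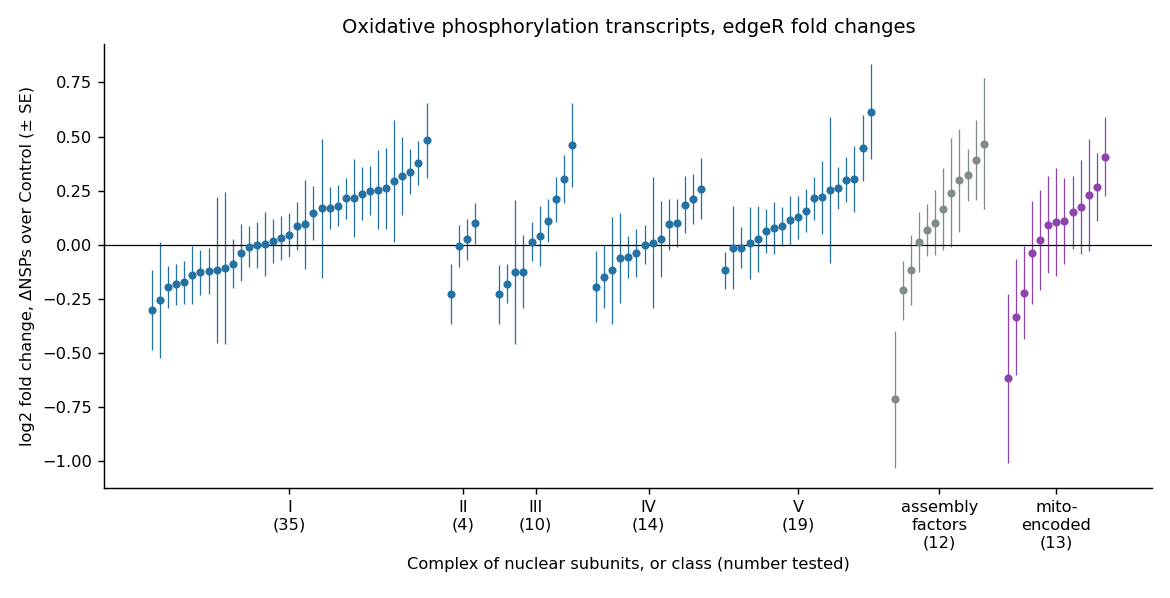
Log2 fold change of each tested member, ΔNSPs over Control, with bars of 1 SE from the edgeR fit, ordered within each nuclear complex (I to V), the assembly factors and the mitochondrially encoded genes. Most members lie within 0.5 of 0 on the log2 scale, and ATP5F1E of complex V, at 0.62, is the highest.

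Complex I, the NADH dehydrogenase, had 35 of its 37 nuclear subunits tested, with a median log2 fold change of 0.044, 3 subunits higher at an unadjusted p under 0.05 (8.57%, beside 9.23% of all genes) and none lower. NDUFB2, an accessory subunit of the membrane arm, had 89.5, 96.6 and 104 CPM in ΔNSPs clones 1 to 3, against 75.7, 69.9 and 77.9 CPM in Control lines 1 to 3 (log2 fold change 0.38, SE 0.10, edgeR adjusted p = 0.178). Every clone lay above every Control line. NDUFS8, a core subunit that holds iron-sulfur clusters, had 87.8, 79.1 and 92.6 CPM in the ΔNSPs clones, against 72.8, 65.3 and 67.4 CPM in the Control lines (log2 fold change 0.34, SE 0.10, edgeR adjusted p = 0.191), again without overlap. NDUFS6, an accessory subunit at the base of the matrix arm, had 113, 116 and 165 CPM in the ΔNSPs clones, against 109, 84.5 and 88.6 CPM in the Control lines (log2 fold change 0.48, SE 0.17, edgeR adjusted p = 0.225). Clone 3 was far above the other 5 libraries, and clone 1 exceeded Control line 1 by little. The other subunits that were higher without overlap were NDUFA1, NDUFA9, NDUFAB1, the mitochondrial acyl carrier protein, and NDUFS5, with log2 fold changes of 0.18, 0.25, 0.21 and 0.17.

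Other subunits of complex I lay below Control. NDUFV1, which binds the flavin and NADH, had 165, 174 and 184 CPM in the ΔNSPs clones, against 209.5, 186 and 205 CPM in the Control lines (log2 fold change -0.20, SE 0.10, edgeR adjusted p = 0.331). All its values in the clones were under those of the Control lines, and the same held for the accessory subunit NDUFA10 (log2 fold change -0.17). The core subunits NDUFS1 and NDUFS3 had log2 fold changes of -0.0026 and -0.0091, and their groups overlapped. Per kilobase of exon, NDUFS5 had the highest level of the nuclear complex I subunits, 518 CPM per kb over the 6 libraries, and it had 296, 317 and 289.7 CPM in the ΔNSPs clones, against 285, 251 and 265 CPM in the Control lines. NDUFA8 was low in clone 3 alone, with 65.7, 56.2 and 38.2 CPM in the ΔNSPs clones, against 61.2, 68.1 and 68.4 CPM in the Control lines (log2 fold change -0.30, SE 0.19, edgeR adjusted p = 0.422).

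Complex II, succinate dehydrogenase, showed no subunit at an unadjusted p under 0.05 and a median log2 fold change of 0.0093 over its 4 subunits. SDHA, the flavoprotein, had 143, 116 and 168 CPM in the ΔNSPs clones, against 163, 169 and 168 CPM in the Control lines (log2 fold change -0.23, SE 0.14, edgeR adjusted p = 0.419). Clone 2 lay below all other libraries and clone 3 level with the Control lines. SDHB, the iron-sulfur subunit and the one with the highest level per kilobase of the complex, had 152, 159 and 164 CPM in the ΔNSPs clones, against 149, 155 and 139.8 CPM in the Control lines (log2 fold change 0.10, SE 0.094, edgeR adjusted p = 0.607), and the groups overlapped. The membrane anchors SDHC and SDHD differed by 0.024 and -0.0055 on the log2 scale. SDHC had 127, 144 and 137 CPM in the ΔNSPs clones, against 135, 133 and 134 CPM in the Control lines. SDHD had 71.1, 77.3 and 69.5 CPM in the ΔNSPs clones, against 71.9, 76.8 and 70.1 CPM in the Control lines. Neither anchor separated the groups. SDHD shares 47.7% of its coding bases with another annotated gene on the same strand.

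Complex III, the cytochrome bc1 complex, had 10 nuclear genes tested and a median log2 fold change of 0.027. UQCRQ, a small subunit that contacts cytochrome b, had 69.01, 65.6 and 68.9 CPM in the ΔNSPs clones, against 61.3, 49.1 and 54.6 CPM in the Control lines (log2 fold change 0.30, SE 0.11, edgeR adjusted p = 0.228), with no overlap. UQCR11, another small subunit, had 13.3, 10.6 and 16.002 CPM in the ΔNSPs clones, against 9.87, 9.71 and 9.36 CPM in the Control lines (log2 fold change 0.46, SE 0.19, edgeR adjusted p = 0.272), also with no overlap, but all of its coding bases lie in a second annotated gene on the same strand. UQCR10 was higher without overlap too (log2 fold change 0.21). The core subunit UQCRC2 had 315, 324 and 333 CPM in the ΔNSPs clones, against 356, 389.5 and 356 CPM in the Control lines (log2 fold change -0.18, SE 0.091, edgeR adjusted p = 0.333), every clone below every Control line. Its partner UQCRC1 had 405, 446 and 419 CPM in the ΔNSPs clones, against 425, 411 and 422 CPM in the Control lines. UQCRH, the hinge protein, had the highest level per kilobase of the nuclear complex III genes, 259.6 CPM per kb, with 368, 370.2 and 400.2 CPM in the ΔNSPs clones, against 351, 326 and 377 CPM in the Control lines (log2 fold change 0.11). UQCRFS1, the Rieske iron-sulfur protein, had 352, 222 and 249 CPM in the ΔNSPs clones, against 282, 312 and 303 CPM in the Control lines (log2 fold change -0.13, SE 0.17, edgeR adjusted p = 0.723). Clones 2 and 3 lay below all Control lines and clone 1 above them.

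In complex IV, cytochrome c oxidase, none of the 14 nuclear subunits tested reached an unadjusted p under 0.05, and their median log2 fold change was 0.0042. COX5A, a subunit of the matrix side, was the one whose groups did not overlap, with 273, 346 and 287 CPM in the ΔNSPs clones, against 271, 249 and 262 CPM in the Control lines (log2 fold change 0.21, SE 0.12, edgeR adjusted p = 0.369). COX7B, a small membrane subunit, had the smallest p among the higher ones, with 116, 135 and 151 CPM in the ΔNSPs clones, against 130.4, 101 and 105 CPM in the Control lines (log2 fold change 0.26, SE 0.14, edgeR adjusted p = 0.369). COX6B1, on the intermembrane side, had the highest level per kilobase, 287 CPM per kb. COX6B1 had 284, 243 and 267 CPM in the ΔNSPs clones, against 263, 252 and 302 CPM in the Control lines, and the groups overlapped. COX5B, a zinc-binding subunit, was low in clone 3 alone, with 233, 250.1 and 172 CPM in the ΔNSPs clones, against 253, 231 and 243 CPM in the Control lines (log2 fold change -0.15, SE 0.15, edgeR adjusted p = 0.619).

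Several complex IV subunits have tissue isoforms, and for COX4 and COX7A the broadly expressed form carried nearly all reads. COX4I1 had 355, 383 and 385 CPM in the ΔNSPs clones, against 373, 367 and 385 CPM in the Control lines, a log2 fold change of -0.00083, while its hypoxia-linked isoform COX4I2 had 0 to 6 counts per library and was not tested. COX7A2 had 107, 128 and 125 CPM in the ΔNSPs clones, against 110.5, 104 and 121 CPM in the Control lines, while the muscle isoform COX7A1 had 1 to 7 counts. COX6B2, the testis isoform, had 0 to 6 counts. The isoform COX6A1 had 8.34, 9.99 and 8.25 CPM in the ΔNSPs clones, against 8.42, 8.403 and 9.27 CPM in the Control lines, with no order between the groups. NDUFA4, now counted as a complex IV subunit, had 126, 159 and 173 CPM in the ΔNSPs clones, against 144, 129 and 130.05 CPM in the Control lines. Its paralog NDUFA4L2 had 8.98, 7.11 and 8.25 CPM in the ΔNSPs clones, against 11.8, 5.14 and 7.28 CPM in the Control lines. COX8A and COX8C had 47.4 and 39.6 CPM per kb, but COX8A shares 55.1% of its coding bases with another gene, so these values cannot be compared as levels. COX8A had 24.95, 24.98 and 20.5 CPM in the ΔNSPs clones, against 30.9, 17.5 and 25.3 CPM in the Control lines. COX8C had 26.7, 16.8 and 17.1 CPM in the ΔNSPs clones, against 15.7, 24.7 and 25.6 CPM in the Control lines. None of these isoforms separated the groups. Coding bases are shared with another gene on the same strand in 3 of them: COX6A1 53.5%, COX8A 55.1% and COX6B2 all. The counts of these 3 cannot be read as their levels.

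Complex V, the ATP synthase, had 16 positive log2 fold changes among its 19 nuclear members tested, ATP5S included, with a median of 0.13, beside 7439 of 14797 over all genes tested. At an unadjusted p under 0.05 stood 4, all higher (21.1%, beside 9.23% of all genes and 11.9% of protein-coding genes of at least 20 CPM). These 4, ATP5F1E, ATP5PF, ATP5MD and ATP5MG, have at most 450 coding bases. Among other protein-coding genes of at least 20 CPM with at most 450 coding bases, 89 of 419 were higher at that level and 23 lower. The part of length was not tested. ATP5F1E, the epsilon subunit of the rotating central stalk, had 122, 193 and 192 CPM in the ΔNSPs clones, against 136, 86.6 and 108 CPM in the Control lines (log2 fold change 0.62, SE 0.22, edgeR adjusted p = 0.221). Clones 2 and 3 were above all other libraries, and clone 1 lay inside the Control range. Without clone 1 it was the single member called (log2 fold change 0.80, edgeR adjusted p = 0.0431), beside 6.17% of the genes tested in that fit (3.04% higher, 3.13% lower). ATP5PF, a coupling factor of the peripheral stalk, had 123, 154 and 164 CPM in the ΔNSPs clones, against 127, 101 and 95.5 CPM in the Control lines (log2 fold change 0.45, SE 0.15, edgeR adjusted p = 0.209), and clone 1 again lay inside the Control range. ATP5MD and ATP5MG, small membrane subunits, separated the groups. ATP5MD had 156, 157 and 147 CPM in the ΔNSPs clones, against 135, 111 and 127 CPM in the Control lines (log2 fold change 0.30, SE 0.11, edgeR adjusted p = 0.219). ATP5MG had 147, 144 and 153 CPM in the ΔNSPs clones, against 118, 118 and 134 CPM in the Control lines (log2 fold change 0.26, SE 0.10, edgeR adjusted p = 0.234). The membrane subunit ATP5MPL was the third to be higher without overlap (log2 fold change 0.21).

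The main subunits of the catalytic head lay at or below 0. ATP5F1A, the alpha subunit, had 647, 637 and 608 CPM in the ΔNSPs clones, against 704, 673 and 679 CPM in the Control lines (log2 fold change -0.12, SE 0.087, edgeR adjusted p = 0.493), each clone below each Control line. ATP5F1B, the beta subunit and the highest nuclear member of the complex per kilobase at 384 CPM per kb, had 882, 946 and 835 CPM in the ΔNSPs clones, against 927, 918 and 844 CPM in the Control lines (log2 fold change -0.014). The genes ATP5MC1, ATP5MC2 and ATP5MC3 encode the same mature subunit of the proton-driven ring; their log2 fold changes were 0.16, 0.025 and 0.11, and their levels per kilobase 49.7, 61.5 and 77.3 CPM per kb. The inhibitor ATP5IF1, which blocks ATP hydrolysis by the enzyme, had 175, 170.1 and 170.3 CPM in the ΔNSPs clones, against 174, 147 and 172 CPM in the Control lines (log2 fold change 0.063). These 4 genes had overlapping groups. ATP5S had 33.6, 27.2 and 38.6 CPM in the ΔNSPs clones, against 29.4, 24.6 and 26.5 CPM in the Control lines (log2 fold change 0.30).

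**Figure D2:**
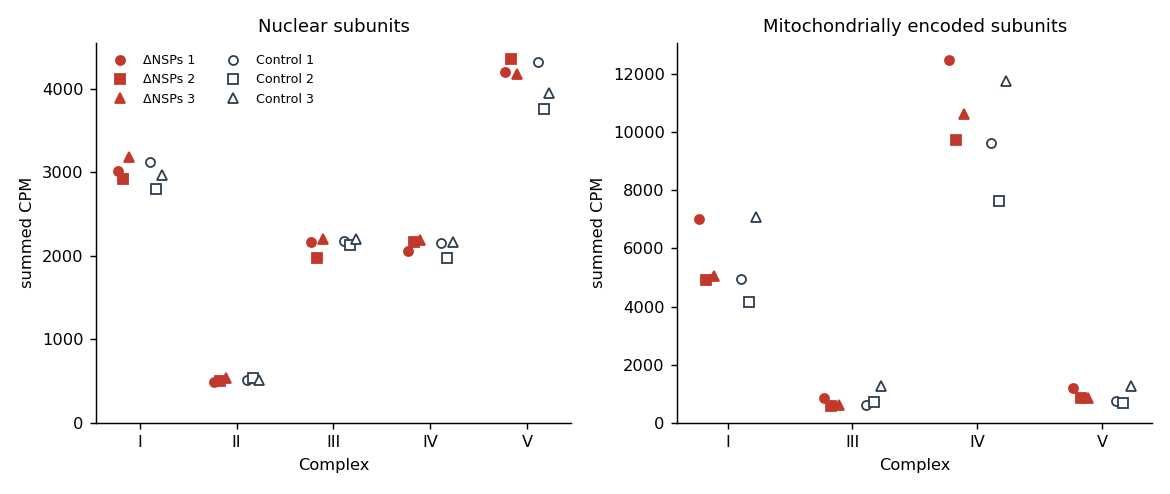
Summed CPM of the nuclear subunits (left panel) and of the mitochondrially encoded subunits (right panel) of each complex, 1 point per library, filled red for ΔNSPs clones and open for Control lines. Nuclear sums of complex V were 4206, 4361 and 4179 CPM in ΔNSPs clones 1 to 3 and 4323, 3755 and 3956 CPM in Control lines 1 to 3, and the groups overlap in every complex.

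Among the 12 assembly factors taken by the prefixes, NDUFAF4, which acts early in complex I assembly, had 41.3, 34.5 and 34.6 CPM in the ΔNSPs clones, against 30.04, 30.6 and 27.8 CPM in the Control lines (log2 fold change 0.32, SE 0.12, edgeR adjusted p = 0.235), with no overlap. SDHAF4, which acts on SDHA before complex II is joined, had 7.63, 4.995 and 12.5 CPM in the ΔNSPs clones, against 15.998, 12.6 and 12.6 CPM in the Control lines (log2 fold change -0.72, SE 0.32, edgeR adjusted p = 0.289). Clones 1 and 2 were lower than clone 3, which all but touched the Control lines. NDUFAF8 was highest in clone 1, with 70.5, 42.5 and 50.9 CPM in the ΔNSPs clones, against 44.1, 37.9 and 43.1 CPM in the Control lines (log2 fold change 0.39, SE 0.18, edgeR adjusted p = 0.308). NDUFAF1 varied within both groups, with 18.8, 40.04 and 28.6 CPM in the ΔNSPs clones, against 28.8, 17.5 and 16.98 CPM in the Control lines. The other 8 had log2 fold changes between -0.21 and 0.30, and their groups overlapped.

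The 13 mitochondrially encoded members form part of the mitochondrial polycistronic transcripts, and their level differed more between libraries than between groups. Their summed level was 21571, 16073 and 17119 CPM in ΔNSPs clones 1 to 3 and 15946, 13176 and 21346 CPM in Control lines 1 to 3, or 2.195, 1.597 and 1.67% and 1.58, 1.34 and 2.15% of all counts. Clone 1 and Control line 3 stood above the other 4 libraries, and Control line 2 was the lowest. The ratio of summed mitochondrial to summed nuclear members was 1.74, 1.31 and 1.35 in the ΔNSPs clones and 1.26, 1.14 and 1.75 in the Control lines. The groups differed by 0.10 on the log2 scale, within the SD of 0.23 in ΔNSPs and 0.32 in Control. Of the 13 genes, 12 were highest in clone 1 (8 genes) or in Control line 3 (4 genes), and 10 were lowest in Control line 2. In 9 genes both clone 1 and Control line 3 exceeded the other 4 libraries. None of the 13 reached an unadjusted p under 0.05, and the sign of their median log2 fold change rested on single libraries: it was -0.093 without clone 1 and -0.058 without Control line 2, against 0.31 without Control line 3.

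The complex IV subunits MT-CO3, MT-CO1 and MT-CO2, which form the catalytic core, had the highest levels per kilobase, 4064, 3417 and 2702 CPM per kb. MT-CO1, the subunit that holds the site of oxygen reduction, had 6427, 4978 and 5216 CPM in the ΔNSPs clones, against 5143, 3886 and 5963 CPM in the Control lines. MT-CO2, which takes electrons from cytochrome c, had 2322, 1622 and 1812 CPM in the ΔNSPs clones, against 1703, 1384 and 2247 CPM in the Control lines. MT-CO3 had 3732, 3118 and 3592 CPM in the ΔNSPs clones, against 2772, 2359 and 3545 CPM in the Control lines. Their log2 fold changes were 0.15, 0.11 and 0.27, and the groups overlapped. MT-ND1, the first complex I subunit of the genome, had 741, 556 and 623 CPM in the ΔNSPs clones, against 484, 369.97 and 595 CPM in the Control lines (log2 fold change 0.41, SE 0.18, edgeR adjusted p = 0.295), the smallest p of the 13. MT-CYB, the cytochrome b of complex III, had 869, 594 and 598 CPM in the ΔNSPs clones, against 624, 725 and 1249.5 CPM in the Control lines (log2 fold change -0.33, SE 0.27, edgeR adjusted p = 0.535), with Control line 3 far above the others. MT-ND4, the highest complex I gene per kilobase, had 3041, 2018 and 2214 CPM in the ΔNSPs clones, against 2052, 1997 and 3413 CPM in the Control lines. The other complex I genes, MT-ND2, MT-ND3, MT-ND4L, MT-ND5 and MT-ND6, had log2 fold changes of 0.092, 0.022, -0.22, 0.17 and 0.23. MT-ND6, the one transcribed from the other strand, had 401, 316 and 264 CPM in the ΔNSPs clones, against 309, 176 and 353 CPM in the Control lines. MT-ATP6, the subunit beside the rotor of complex V, had 1211, 863 and 840.3 CPM in the ΔNSPs clones, against 764, 679.7 and 1268 CPM in the Control lines.

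**Figure D3:**
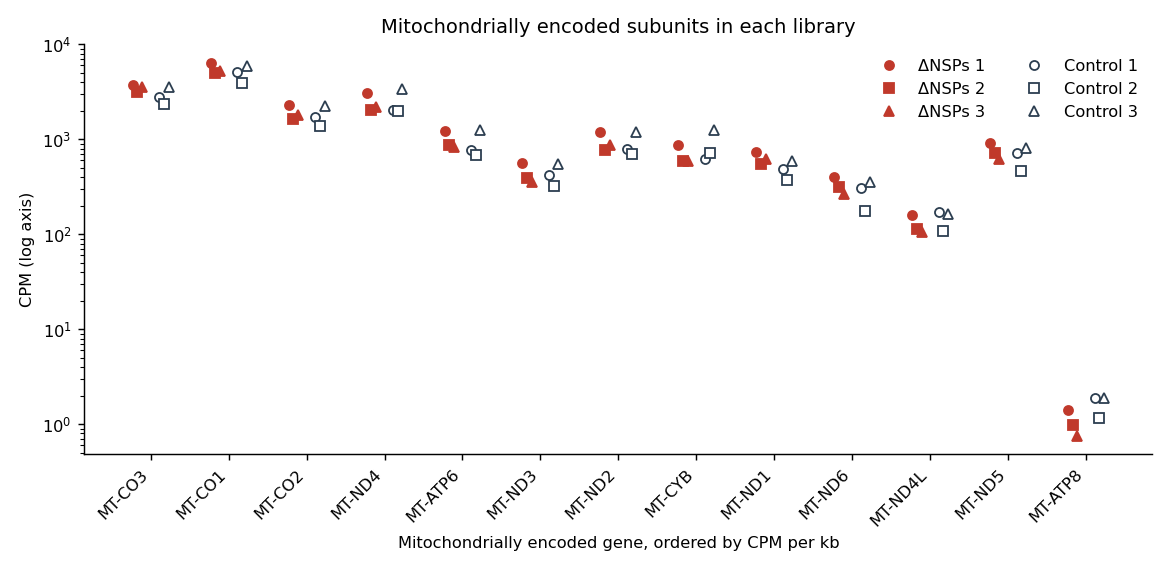
Level of each mitochondrially encoded gene in CPM on a log axis, ordered by CPM per kilobase, with 1 point per library, filled red for ΔNSPs clones left of the open points for Control lines. Clone 1 (filled circle) and Control line 3 (open triangle) are the highest in most genes, and MT-ATP8 lies near 1 CPM.

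The balance among the mitochondrial transcripts also differed between libraries. The ratio of MT-CO3 to MT-CYB counts was 4.29, 5.25 and 6.003 in the ΔNSPs clones, against 4.44, 3.25 and 2.84 in the Control lines. That of MT-ND1 to MT-CYB was 0.853, 0.936 and 1.04 in the ΔNSPs clones, against 0.775, 0.5101 and 0.476 in the Control lines. For MT-ND1 the clones lay above all Control lines, and for MT-CO3 clone 1 fell below Control line 1. MT-ND1 and MT-CO3 had the highest log2 fold changes of the mitochondrially encoded genes (0.41 and 0.27), and MT-CYB the lowest (-0.33) after MT-ATP8. The ratios were thus built from the extremes of the same values, and the order of the groups in them is not separate evidence of a shift. The large ribosomal RNA gene MT-RNR2, which is not a member, had 727, 2364 and 2449.8 CPM in the ΔNSPs clones and 1742, 437 and 628 CPM in the Control lines, 3.37, 14.7 and 14.3% and 10.9, 3.32 and 2.94% of the summed mitochondrial messengers. Clones 2 and 3 and Control line 1 were high, and these are the libraries with the lower MT-CYB levels. The part of this difference in the ratios was not tested.

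MT-ATP8, a small membrane subunit of complex V, stood apart from its neighbour MT-ATP6. It had 9 to 22 counts per library, 1.43, 0.984 and 0.758 CPM in the ΔNSPs clones, against 1.87, 1.16 and 1.91 CPM in the Control lines (log2 fold change -0.62, SE 0.39, edgeR adjusted p = 0.435), although both are read from the same messenger. Its 207 annotated bases share their last 46 with the start of MT-ATP6, at chrM:8527-8572 on the plus strand of GRCh38, shown here because a read across them belongs to both genes (GENCODE v29 transcripts).
MT-ATP8 and MT-ATP6 overlap: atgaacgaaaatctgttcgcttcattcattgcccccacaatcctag

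The stretch opens with the start codon of MT-ATP6 and closes with the stop codon of MT-ATP8. MT-ND4L and MT-ND4 share 7 bases in the same way, and MT-ND4L had 159, 114 and 105 CPM in the ΔNSPs clones, against 170.03, 107 and 164 CPM in the Control lines. How reads in shared bases were counted is not given in the sources used here, so the level of MT-ATP8 cannot be compared with that of MT-ATP6.

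Several nuclear members that were high or low in a single clone had chromosome neighbours that were shifted the same way; this description was chosen after the values were seen. For each member, the log2 ratio of a library to the Control mean was set beside the median of the genes within 5 Mb that had at least 8 CPM. Over 79 members of at least 20 CPM with such neighbours, Pearson's r between the pair of values was 0.0643, 0.747 and 0.514 in ΔNSPs clones 1 to 3, and 0.366, 0.347 and 0.127 in Control lines 1 to 3. The points of 1 library share its depth, and some share neighbours. Members beyond 0.4 on the log2 scale numbered 1, 10 and 13 in clones 1 to 3, of which 0, 8 and 7 had neighbours past 0.3 in the same direction. In the Control lines 3, 1 and 0 members lay beyond 0.4 and 0 had such neighbours. Each Control line is part of the Control mean, which draws its ratios toward 0. The counts of Control lines and clones at these bounds therefore cannot be compared directly.

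**Figure D4:**
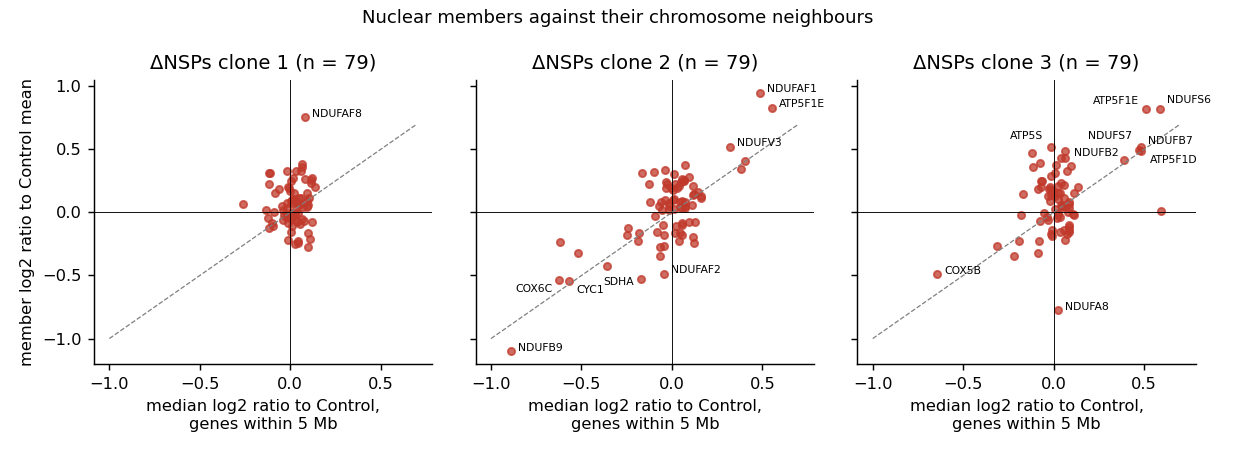
Log2 ratio of each nuclear member of at least 20 CPM to the Control mean (vertical) against the median log2 ratio of genes within 5 Mb (horizontal), in ΔNSPs clones 1, 2 and 3; the dashed line marks equal values. Clone 1 shows no spread along the line, while NDUFB9 in clone 2, COX5B in clone 3 and ATP5F1E in clones 2 and 3 lie out along it.

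On chromosome 8, NDUFB9 of complex I had 247, 116 and 264 CPM in the ΔNSPs clones, against 257, 241 and 251 CPM in the Control lines. CYC1, the cytochrome c1 of complex III, had 331, 254 and 362 CPM in the ΔNSPs clones, against 373, 361 and 376 CPM in the Control lines. COX6C of complex IV had 174, 142 and 225 CPM in the ΔNSPs clones, against 212, 191 and 215 CPM in the Control lines. In all 3 genes clone 2 stood lowest. UQCRB of complex III had 225, 182 and 254 CPM in the ΔNSPs clones, against 229, 196 and 218 CPM in the Control lines. The assembly factor NDUFAF6 had 32.6, 20.7 and 34.4 CPM in the ΔNSPs clones, against 27.7, 25.5 and 25.1 CPM in the Control lines. All 5 were lowest in clone 2, where their log2 ratios were -1.10 (NDUFB9), -0.54 (CYC1), -0.54 (COX6C), -0.23 (UQCRB) and -0.32 (NDUFAF6), beside neighbour medians of -0.89, -0.57, -0.62, -0.62 and -0.52. Their group fold changes had adjusted p of 0.403 or more in edgeR. COX6C was the complex IV gene with the smallest p among the lower ones (log2 fold change -0.19), and it rested on clones 1 and 2.

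**Figure D5:**
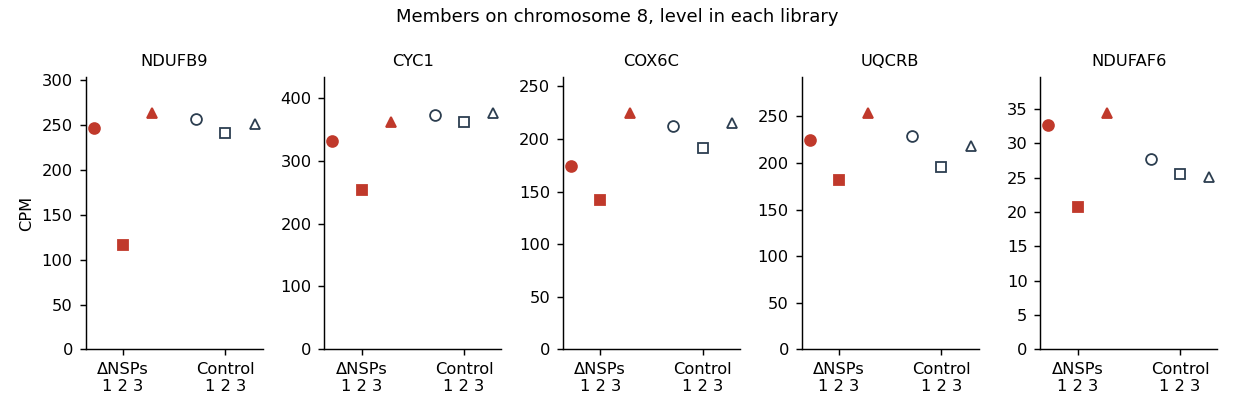
CPM of the 5 members on chromosome 8 in each library, ΔNSPs clones 1 to 3 (filled red) left of Control lines 1 to 3 (open), each panel with its own axis from 0. Clone 2 (filled square) is the lowest library in every panel, and NDUFB9 shows the widest gap, 116 CPM against at least 241 CPM elsewhere.

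Elsewhere, ATP5F1E on chromosome 20 had log2 ratios of 0.83 beside 0.55 for its neighbours in clone 2 and 0.82 beside 0.51 in clone 3. The member with the largest positive difference between the groups thus had neighbours that were high in the same clones, and their part in it was not tested. In clone 3, NDUFS6 on chromosome 5 had 0.82 beside 0.59 and COX5B on chromosome 2 -0.49 beside -0.64. NDUFS7, NDUFB7 and ATP5F1D, all on chromosome 19, had 0.52 beside 0.48, 0.50 beside 0.47 and 0.49 beside 0.48 in that clone, and NDUFV3 on chromosome 21 had 0.52 beside 0.32 in clone 2 and 0.41 beside 0.39 in clone 3. UQCRFS1 on chromosome 19 had -0.43 beside -0.36 and -0.27 beside -0.31 in clones 2 and 3. Other members differed without their neighbours: NDUFA8 in clone 3 (-0.78 beside 0.023), NDUFAF8 in clone 1 (0.75 beside 0.08), and SDHAF4 in clones 1 and 2 (-0.80 beside -0.044 and -1.37 beside -0.051). SDHA in clone 3 was the reverse, level with Control (0.011) among neighbours at 0.59. NDUFB2 and NDUFS8, with the smallest p of the members, had neighbour medians of at most 0.11 in every clone.

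The spread between libraries of a group was compared with that of other genes. Over 81 nuclear members of at least 20 CPM, the median SD of log2 CPM was 0.12 among ΔNSPs clones and 0.11 among Control lines, beside 0.17 and 0.11 for 7367 other protein-coding genes at that level. A deviation beyond 0.5 on the log2 scale from the median of the other libraries was seen in 3.704, 9.88 and 8.64% of members in ΔNSPs clones 1 to 3. The shares of other genes were 4.47, 15.3 and 13.3%. In Control lines 1 to 3 it was seen in 3.704, 6.17 and 2.47% of members, beside 2.29, 5.77 and 5.27% of other genes. The members' share was the lower of each pair in all 3 clones and in Control line 3 and the higher in Control lines 1 and 2, and the difference was not tested.

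Some subunits had few counts where the annotation places a second gene over them. In 12 nuclear subunit genes at least 50% of the coding bases lie in another annotated gene on the same strand, and their median level was 6.68 CPM (1.3004 CPM per kb), beside 116 CPM (49.1 CPM per kb) for the other 75. Levels under 10 CPM were found in 8 of the 12 and in 5 of the 75. NDUFB8, a membrane subunit of complex I with 85.2% of its coding bases shared, averaged 1.68 CPM over the 6 libraries. NDUFV2, a core subunit with 84.7% shared, averaged 0.5498 CPM, NDUFA7 with 78.3% averaged 0.359 CPM, and NDUFC2 with 76.9% averaged 4.57 CPM. The 4 of the 12 above 10 CPM were ATP5MG at 136 CPM with 56.5% shared, COX8A at 24.03 CPM, ATP5PO at 16.9 CPM and UQCR11 at 11.5 CPM. Per kilobase, COX8A (47.4 CPM per kb) and ATP5MG (40.1 CPM per kb) were the nearest to the median of the other 75. Since the counting of reads in shared bases is not given in the sources used here, the low levels of these subunits describe the counted reads, not the cells' content of the transcript. NDUFA7 and NDUFV2 were among the 5 members with too few counts to be tested, with COX4I2, COX6B2 and COX7A1. Of 10 pseudogenes in the table named after members, COX6A1P2 had 8.33 CPM, close to the 8.78 CPM of COX6A1, while SDHAP1 and SDHDP6 had 6.602% and 13.4% of the level of SDHA and SDHD; reads of these copies may be split between them.

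Short and long nuclear members were set apart by coding length, a split made after the values were seen. Of 46 nuclear members tested with at most 450 coding bases, 33 had a positive log2 fold change (median 0.10), with 9 higher (19.6%) and 1 lower (2.17%) without overlap. Among other short genes the shares were 22.4% higher and 6.92% lower. Of 49 longer ones 28 were positive (median 0.031), with 6 higher (12.2%) and 5 lower (10.2%), beside 14.5% and 12.7% of other long genes. Other protein-coding genes of at least 20 CPM showed the same order, with medians of 0.072 over 419 short genes and 0.015 over 6948 longer ones. At an unadjusted p under 0.05, 7 of the 46 short members were higher and 0 lower, beside 89 and 23 of the 419 other short genes. Of the 49 longer members 3 were higher and 0 lower, beside 789 and 695 of the 6948 other longer genes. The short members' median deviation was -0.18 in Control line 2, the lowest of the 6 libraries, and -0.11 there for the other short genes. The part of length or of this library in the members' differences was not tested. The 23 tested members with an NRF1 or ETS core in the promoter window had a median log2 fold change of 0.044 (15 positive), beside 0.09 over the 40 with neither (26 positive).

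Regulators of mitochondrial biogenesis held 2 higher genes of 13 and 2 lower ones at an unadjusted p under 0.05, 15.4% each beside 9.23% and 8.6% of all genes. None was called. NRF1, the factor for which the motif is named, had 26.9, 26.6 and 23.7 CPM in the ΔNSPs clones, against 21.3, 21.4 and 20.8 CPM in the Control lines (log2 fold change 0.28, SE 0.12, edgeR adjusted p = 0.271). PPARGC1A, a coactivator of several nuclear receptors, had 7.98, 6.05 and 9.43 CPM in the ΔNSPs clones, against 13.9, 13.4 and 9.53 CPM in the Control lines (log2 fold change -0.65, SE 0.23, edgeR adjusted p = 0.225). NRF1 was higher and PPARGC1A lower in every clone than in every Control line. ESRRA and SIRT3 were the other higher and the other lower gene at an unadjusted p under 0.05. Their log2 fold changes were 0.24 and -0.62, and for SIRT3 the groups overlapped. GABPA, the DNA-binding subunit of GABP, had 89.8, 123 and 136 CPM in the ΔNSPs clones, against 106, 89.8 and 79.02 CPM in the Control lines (log2 fold change 0.34, SE 0.18, edgeR adjusted p = 0.34), with clones 2 and 3 above the rest as in ATP5PF. The annotated genes GABPA and ATP5PF start on opposite strands of chromosome 21 and share 1104 bases there, and the strand setting of the counting is not given in the sources used here.

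Genes that serve the members' assembly and expression gave counts of the same kind, again with 0 edgeR calls in each list. Of 77 mitochondrial ribosomal protein genes tested, whose products translate the 13 mitochondrial messengers, 14 were higher and none lower at an unadjusted p under 0.05, 18.2% beside 9.23% of all genes, with a median log2 fold change of 0.092. MRPL47 had 74.4, 80.8 and 73.9 CPM in the ΔNSPs clones, against 60.8, 57.7 and 50.5 CPM in the Control lines (log2 fold change 0.44, SE 0.11, edgeR adjusted p = 0.171). It was the one ribosomal protein gene called by DESeq2 (adjusted p = 0.0488), beside 3.98% of the genes DESeq2 adjusted. Of 43 genes for expression and upkeep of mitochondrial DNA, 3 were higher (SLIRP, HSD17B10 and MTRF1L; 6.98%) and none lower. SLIRP, which stabilises mitochondrial messengers, had 92.3, 96.8 and 88.3 CPM in the ΔNSPs clones, against 77.2, 69.8 and 73.8 CPM in the Control lines (log2 fold change 0.33, SE 0.10, edgeR adjusted p = 0.181). TFAM, which packages the genome and starts its transcription, had 133, 126 and 134 CPM in the ΔNSPs clones, against 132, 135 and 104 CPM in the Control lines (log2 fold change 0.085). Of 52 assembly factors for all complexes, 13 members (ATP5S among them as DMAC2L) included, 4 were higher (NDUFAF4, COX17, COX20 and COA7) and 4 lower (NUBPL, COX15, COX18 and COA5), 7.69% and 7.69% beside 9.23% and 8.6% of all genes. COX17, a copper chaperone, had 30.7, 26.9 and 39.1 CPM in the ΔNSPs clones, against 23.998, 22.7 and 24.3 CPM in the Control lines. COX15, which makes heme A, had 95.7, 81.5 and 68.7 CPM in the ΔNSPs clones, against 99.9, 108 and 104 CPM in the Control lines. CYCS, the cytochrome c that links complexes III and IV, had 491, 482 and 553 CPM in the ΔNSPs clones, against 459, 396 and 351 CPM in the Control lines (log2 fold change 0.34, SE 0.12, edgeR adjusted p = 0.228), with every clone above every Control line.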

How the data were processed

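Whole-number read counts per Ensembl gene were deposited by the authors for 6 libraries of U937 RNA, 3 ΔNSPs and 3 Control. The submitters' processing notes name FastQC, HISAT2 2.0.0, SAMtools 1.5.9, HTSeq 0.11.1 and GRCh38.p12; how HTSeq treated strand and overlapping genes is not given in the sources used here. Genes listed have 10 or more counts summed over the 6 libraries.

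Of 18798 genes, 18771 matched GENCODE release 29 (GRCh38), which supplied symbols, lengths and overlaps. ΔNSPs clones were compared with Control lines by edgeR 4.0.16 (R 4.3.3): TMM factors, filterByExpr, quasi-likelihood test, two-sided, Benjamini-Hochberg over 14797 genes, threshold 0.05, no covariates. SE is the log2 fold change over the square root of the quasi-likelihood F. DESeq2 1.42.0 and limma 3.58.1 (voom with quality weights), other scalings and filters, a replicate block and leaving out each library were alternatives. For 3 against 3 libraries an exact permutation test cannot go below p = 0.1, so single values such as ratios got none. The fits were tested on simulated data.

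Totals of 11476619 to 13782854 counts set the precision, and floors of 3 counts cover counting error only. Library pairs within a group differed by 7.62 to 32.8 times the chi-square of sampling noise per degree of freedom, so each counted as a sample; p-values measure the spread between these clones and lines.

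The members, gene lists, complex assignments and named genes (per complex the highest gene per kilobase of exon and the smallest p in each direction, mitochondrial genes, isoform pairs, SDHA to SDHD, ATP5MC1 to ATP5MC3, ATP5IF1 and chromosome 8 members) were chosen with earlier results of these data known; others named were chosen after their values were seen. Some genes of the lists are not reported here.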

Additional observations from a re-analysis of the deposited data

How the results depend on the processing

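Calls among the members stayed at 0 in edgeR under DESeq2 size factors, library totals, scaling from nuclear genes, no filter, a filter of 5 CPM in 3 libraries, and with assembly factors or chromosome 8 members left out, and in DESeq2 and limma voom. Leaving out 1 library gave 0 to 1 members called, the 1 being ATP5F1E without ΔNSPs clone 1, beside 6.17% of all genes in that fit. Its log2 fold change there was 0.80 (edgeR adjusted p = 0.0431), and its adjusted p ran from 0.0873 to 0.557 in its other alternatives. Members at an unadjusted p under 0.05 numbered 1 to 17 when 1 library was left out and 17 in limma voom, against 10 in the edgeR fit reported. The shares of all genes at that level in these other fits are not given here, so the counts cannot be read as a trait of the members. The median log2 fold change ran from 0.012 to 0.13 over nuclear and from -0.093 to 0.31 over mitochondrially encoded members, and their ratio from -0.033 to 0.28, when 1 library was left out. Of 839 alternative values of 60 named members, 1 changed its call and 47 had the opposite sign without a call.

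Without 1 library the calls ranged from 0 to 2 among assembly factors and among hypoxia-linked genes, and from 0 to 3 among mitochondrial ribosomal proteins. They ranged from 0 to 1 among regulators, citric acid cycle genes and carriers. Without ΔNSPs clone 1, 6.17% of all genes tested were called, and the shares without each other library are not given here. DESeq2 called 1 ribosomal protein (MRPL47), 1 antioxidant gene (NNT) and 2 hypoxia-linked genes (BNIP3 and BNIP3L), beside 3.98% of the genes it adjusted. The cause of these changes was not tested. Same-numbered libraries of the 2 groups correlated at -0.43, -0.16 and -0.14 in their deviations from the group mean. Differently numbered libraries ran from -0.18 to 0.29. Deviations within a group of 3 sum to 0, so these values cannot decide whether the numbers pair the libraries. With the number as a replicate block 0 members were called and 8 stood at an unadjusted p under 0.05, where the share of all genes is not given here. The medians in that fit were 0.069 (nuclear) and 0.12 (mitochondrial). MT-ATP8 rests on 9 to 22 counts per library, so its counting error is wide.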

Other observations

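Around the complexes, 3 of 6 hypoxia-linked genes tested were lower and 1 higher at an unadjusted edgeR p under 0.05, beside 8.6% lower and 9.23% higher over all genes. The list was chosen with earlier results known, and it held 0 edgeR calls and 2 DESeq2 calls, beside 3.98% of all genes in DESeq2. BNIP3, a receptor for removal of mitochondria, had 47.8, 22.3 and 40.3 CPM in the ΔNSPs clones, against 60.3, 92.9 and 97.99 CPM in the Control lines (log2 fold change -1.19, SE 0.29, DESeq2 adjusted p = 0.00287). Its relative BNIP3L had 35.6, 30.4 and 29.7 CPM in the ΔNSPs clones, against 54.1, 79.8 and 86.7 CPM in the Control lines (log2 fold change -1.20, SE 0.18, DESeq2 adjusted p = 2.25e-06). BNIP3L lies on chromosome 8, where clone 2 was low. The part of that shift in the BNIP3L difference was not tested. PDK1, the kinase that restrains pyruvate dehydrogenase, had 547, 751 and 628 CPM in the ΔNSPs clones, against 969.5, 861 and 808 CPM in the Control lines (log2 fold change -0.45, SE 0.14, edgeR adjusted p = 0.187). HIGD1A, a small membrane protein that binds complexes III and IV, had 43.5, 54.6 and 46.7 CPM in the ΔNSPs clones, against 36.3, 36.7 and 29.2 CPM in the Control lines (log2 fold change 0.50, SE 0.14, edgeR adjusted p = 0.178). In all 4 the groups did not overlap, as in 23.9% of all genes tested. The 4 were picked by their unadjusted p from the same values, so the lack of overlap is not separate evidence.

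NNT, which makes mitochondrial NADPH with the proton gradient, had 114, 135 and 121 CPM in the ΔNSPs clones, against 164, 189 and 170.2 CPM in the Control lines (log2 fold change -0.50, SE 0.11, DESeq2 adjusted p = 0.00989, edgeR adjusted p = 0.167). It was the one gene of 9 antioxidant and uncoupling genes at an unadjusted p under 0.05 (11.1% lower, beside 8.6% of all genes). Of 19 genes of the citric acid cycle and pyruvate dehydrogenase, 1 was higher and 1 lower at that level (5.26% each, beside 9.23% and 8.6% of all genes): IDH3A had 137, 170.3 and 136 CPM in the ΔNSPs clones, against 115, 118 and 109 CPM in the Control lines. MDH2 had 415, 397 and 420.2 CPM in the ΔNSPs clones, against 480.1, 462 and 501 CPM in the Control lines. Of 12 carriers and porins none was higher and 2 were lower (16.7%, beside 8.6% of all genes): SLC25A6, an exchanger of ADP and ATP, had 459.6, 256 and 261 CPM in the ΔNSPs clones, against 483, 506 and 570.1 CPM in the Control lines. MPC2, of the pyruvate carrier, had 82.1, 59.9 and 77.9 CPM in the ΔNSPs clones, against 86.3, 97.8 and 102 CPM in the Control lines. Of 18 electron carriers and ubiquinone-linked enzymes 2 were higher and 3 lower, 11.1% and 16.7% of the list beside 9.23% and 8.6% of all genes. The higher ones were CYCS and PDSS1, which starts the ubiquinone side chain. The lower ones were the ubiquinone synthesis genes COQ5 and COQ8B and the electron transfer flavoprotein gene ETFB. The medians of these lists lay between -0.094 and -0.036 on the log2 scale, beside 0.0023 over all genes tested.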
